A study of Mus musculus with 3 samples.

Results

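The genes described here encode the ligands, receptors, secreted modulators and intracellular effectors of Wnt signalling. They were chosen by a rule on symbols, set with earlier results of these data known. It took the autosomal protein-coding RefSeq genes of the Wnt, Frizzled, Dickkopf, secreted Frizzled-related and Axin families and 14 further named genes. Ctnnb1, Lrp5, Lrp6, Ror1 and Ror2 are among these 14. The rule found 54 genes among 20665 autosomal protein-coding genes, and it includes Dkkl1, which only resembles the Dickkopf genes. TBX5, a T-box transcription factor needed for the formation of the heart and forelimb, was mapped in whole hearts of E14.5 mouse embryos of the outbred CD-1 stock, with chromatin immunoprecipitation followed by sequencing (ChIP-seq). The 3 samples were 2 replicates precipitated with 1 anti-TBX5 antibody and 1 input sample of the same stage, stock and tissue, and the labels name no allele or treatment. The authors called 12436 peaks once, on the pooled ChIP samples, so no value has a spread over replicates and no p-value could be given. Whole hearts hold several cell types, and the files do not tell in which of them TBX5 was bound.

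Wnt proteins are secreted lipid-modified ligands that bind Frizzled receptors. With the co-receptors LRP5 or LRP6 they stop the Axin and APC complex from degrading beta-catenin, which then works with TCF and LEF factors in the nucleus. With ROR1, ROR2 and the Dishevelled and DAAM proteins they act instead on cell polarity and the cytoskeleton. Dickkopf and secreted Frizzled-related proteins hold the ligands or receptors in check outside the cell, and R-spondins raise the level of receptors. In the embryonic heart, Wnt signals take part in the growth of progenitors, the outflow tract and the valves.

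Binding was scored by summits, the positions of highest signal in the peaks. A gene counted as bound where 1 or more summits fell on its body or on the 10 kb to either side. By this measure 19 of the 54 members were bound (35.2%), against 30.9% of all autosomal protein-coding genes. The 2 shares are close, so the count by itself says little about these genes. The bound members had 52 summits, and 26 of them lay at Ror1 and Ror2. Long genes offer more room for a summit, and the bound members had a median length of 43.5 kb against 12.2 kb for the unbound ones. Of the members under 10 kb 3 of 18 were bound (17.2% of all genes of that length), of those of 10 to 30 kb 4 of 11 (27.8%), of those of 30 to 100 kb 4 of 16 (39.7%) and of those over 100 kb 8 of 9 (64.0%). Lrp5 was the unbound gene among the longest. The members were thus above genes of like length in 2 classes, near them in the shortest class and below them between 30 and 100 kb. Of the other definitions of binding that follow, only the 50 kb window moved the count of 19 of 54 by more than 1.5 times. On the gene body alone 13 members were bound (19.8% of all genes), with 50 kb to either side 31 (51.3%), with any base of the peak in place of the summit 19 (31.0%) and by the gene nearest to each summit 18 (29.0%). Peaks outside the promoter class alone left 13 (18.1%).

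**Figure D1:**
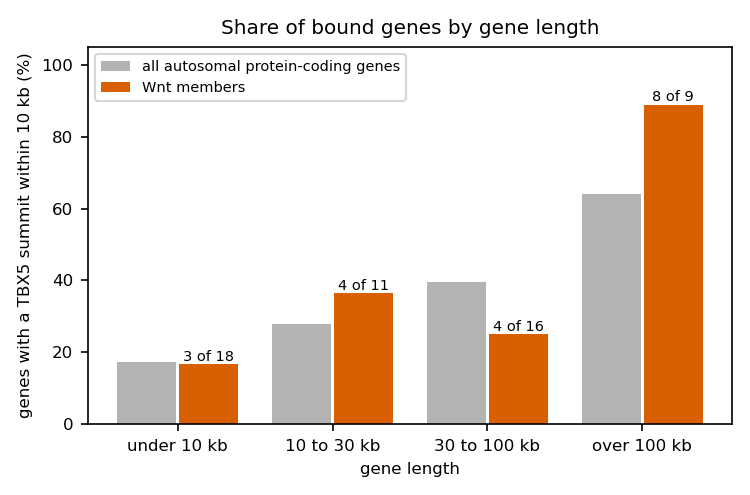
Share of genes bound by TBX5 (y axis, percent, a summit on the body or the 10 kb around it) in 4 classes of gene length (x axis), for all autosomal protein-coding genes (grey) and for the 54 Wnt members (orange, with counts of bound members above the bars). The share of all genes rises from class to class, while that of the members drops to 4 of 16 between 30 and 100 kb and is highest, at 8 of 9, over 100 kb.

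The classes of protein differed in their shares, which count genes and carry no spread between hearts. Of the ligands 3 of 19 were bound (15.8%) and of the receptors and co-receptors 5 of 14 (35.7%). Of the secreted modulators 2 of 10 were bound (20%) and of the intracellular effectors 9 of 11 (81.8%). The share of all autosomal protein-coding genes was 30.9%. Effectors thus stood highest and ligands lowest, with median gene lengths of 36.9 and 22.9 kb, and the difference between them was not tested. Over 100 kb long were 4 of the 11 effectors and 1 of the 19 ligands, all of them bound. Of all genes of that length 64.0% were bound. At a stricter limit of −log10 q of at least 10, which 14.2% of all genes reached, 1 of 11 effectors, 2 of 19 ligands, 3 of 14 receptors and 1 of 10 secreted modulators remained. The effector left was Dvl2, through a peak near Ctdnep1 and Gabarap and another at Phf23. At this limit no effector thus kept a summit nearest to itself, and the shares of effectors (9.09%) and ligands (10.5%) were close. With peaks of at least 5-fold the order stayed, with 5 of 11 effectors and 2 of 19 ligands bound, against 19.2% of all genes.

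Among the ligands, Wnt11, Wnt5b and Wnt9a were bound. Wnt11, a ligand of the outflow tract that acts largely without beta-catenin, had the strongest peak of the class, at 98851156 to 98851506 on chromosome 7 in its gene body. It showed 14.0-fold enrichment (95% Poisson interval 11.4 to 17.0) from 102 ChIP fragments over the summit, more fragments than at any other member summit. That peak lay 12492 bp downstream of a Wnt11 start, in the authors' active class outside promoters. It carried H3K4me1, H3K4me3, H3K9ac and H3K27ac. A second Wnt11 summit, 750 bp upstream of the same start, reached 3.31-fold (2.10 to 4.98) and overlapped a TBX3 region, whereas the stronger one did not. TBX3 is a related T-box repressor that can bind the same kind of DNA site.

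Wnt5b, a close relative of Wnt5a, had 2 summits of similar height, 6.27-fold (4.07 to 9.28) at 119452207 to 119452464 and 5.52-fold (3.61 to 8.10) at 119504884 to 119505110 on chromosome 6. Both lay inside the gene body and in the active class outside promoters, and their intervals overlapped. The authors' distance pointed to a Wnt5b start for the first and to a start of Fbxl14, a gene that is not a member, for the second. Wnt9a, a ligand best known from joint formation, had 1 summit 4516 bp beyond its gene body, with 3.92-fold enrichment (2.26 to 6.40) and a TBX3 overlap. It is a weak peak, and 14.2% of all peaks had a lower fold.

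The other 16 ligands had no summit within 10 kb. Nearest to the window were Wnt16 with a summit at 24.6 kb, Wnt7a at 29.6 kb, Wnt1 at 37.1 kb, Wnt2b at 39.9 kb and Wnt3a at 47.3 kb. The Wnt16 summit lay in Fam3c, the Wnt1 summit in Prkag1, and the Wnt3a summit was the one counted for Wnt9a, so none of these 3 is nearest to the ligand named. The Wnt2b summit stood 288 bp from Cttnbp2nl, and the Wnt7a summit was nearer to Chchd4, at 23368 bp. Mouse Wnt genes often sit in pairs, and of the neighbours Wnt1 and Wnt10b, Wnt6 and Wnt10a, Wnt3 and Wnt9b, and Wnt3a and Wnt9a only Wnt9a had a summit in its window. Wnt3 and Wnt9b were the farthest of all ligands from any summit, at 462 and 415 kb. Wnt5a, the ligand that signals through ROR2, had its nearest summit at 87.2 kb, inside Erc2, with 10.6-fold enrichment.

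Ror1 and Ror2 encode the receptor tyrosine kinase-like proteins that bind WNT5A, and they carried 14 and 12 summits. Only 14 of the 20665 genes (0.0677%) had at least 12, all of them among the 2313 genes over 100 kb (0.605% of these), where the median was 1 summit. The limit of 12 was the count of Ror2 itself, so these shares describe rank and are no test. Per 100 kb of gene and flanks, Ror1 had 3.79 summits and Ror2 6.10, against a median of 0.507 for genes over 100 kb. By that density 98.0% of these long genes stood below Ror1 and 99.8% below Ror2. Ror1 is 349 kb and Ror2 177 kb long, and the part that length has in their counts was not tested.

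The strongest of the Ror1 summits lay in a peak on chromosome 4, at 100284481 to 100284925. Its 90 fragments gave 28.2-fold enrichment (22.7 to 34.6). It was the strongest peak of any member and ranked 223 of 12436. It lay in the gene body 189 kb downstream of the RefSeq start, in the active class, with H3K4me1 and H3K27ac and no TBX3 overlap. Next to it, between 197 and 206 kb from the start, stood summits of 10.2-fold (6.72 to 14.8), 12.3-fold (9.06 to 16.3) and 11.7-fold (8.79 to 15.3), in order of distance. The 4 strongest summits of Ror1 thus lay side by side. Further upstream, a group of 4 summits between 121 and 136 kb from the start had 6.38-fold, 5.45-fold, 9.29-fold and 5.27-fold enrichment, and a single one at 74.1 kb had 7.84-fold. Further downstream, between 249 and 300 kb, 5 summits had 6.31-fold, 4.92-fold, 6.41-fold, 5.04-fold and 3.85-fold enrichment, in order of distance.

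All 14 Ror1 summits lay in the gene body, and none was nearer than 74.1 kb to the start. All overlapped H3K4me1, a mark of enhancers, 8 also overlapped H3K27ac and fell in the active class, and the other 6 were in the poised class. None carried H3K4me3, a mark of promoters, and 1 overlapped a TBX3 region, the weakest of the gene at 3.85-fold. The medians of active and poised Ror1 summits were 7.11-fold and 6.36-fold. Of all autosomal peaks, 72.8% overlapped H3K4me1, 73.6% H3K27ac, 31.7% H3K4me3 and 27.2% TBX3 regions, and 14.3% were poised. The authors' distances pointed to a Ror1 start for 6 of the 14 and to a start of Ube2u for 8. Ube2u is the gene beyond the end of Ror1, so an assignment by these starts divides Ror1.

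The strongest summit of Ror2, in a peak on chromosome 13 at 53262715 to 53263026, was the one nearest to the start, 23.3 kb downstream of it. Its 48 fragments gave 12.8-fold enrichment (9.51 to 16.9). The summits fell into 2 groups, which the largest gap of 60.8 kb divided. The group of 6 nearer the start, between 23.3 and 59.0 kb, had 12.8-fold, 4.71-fold, 5.97-fold, 9.27-fold, 3.53-fold and 3.23-fold enrichment in order of distance. The group between 120 and 137 kb had 11.0-fold (7.95 to 14.8), 7.11-fold, 6.03-fold, 2.86-fold and 5.52-fold enrichment. A last summit, 9425 bp beyond the gene's end, had 7.17-fold (4.65 to 10.6), and the authors' distance pointed to a start of Nfil3. The strong peaks of Ror2 were thus spread over both groups, unlike those of Ror1.

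Active chromatin marked 9 of the 12 Ror2 summits, all of them with H3K27ac, while 2 were poised and 1 carried none of these marks. H3K9ac was found at 6 Ror2 and at 2 Ror1 summits, and at 46.1% of all autosomal peaks. TBX3 regions overlapped 3 Ror2 summits, namely the 11.0-fold, the 7.17-fold and the 6.03-fold one. Neither gene had a promoter-class summit, defined as one within 2000 bp of a start. Of the 26 summits of both genes 11 had −log10 q of at least 10.

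**Figure D2:**
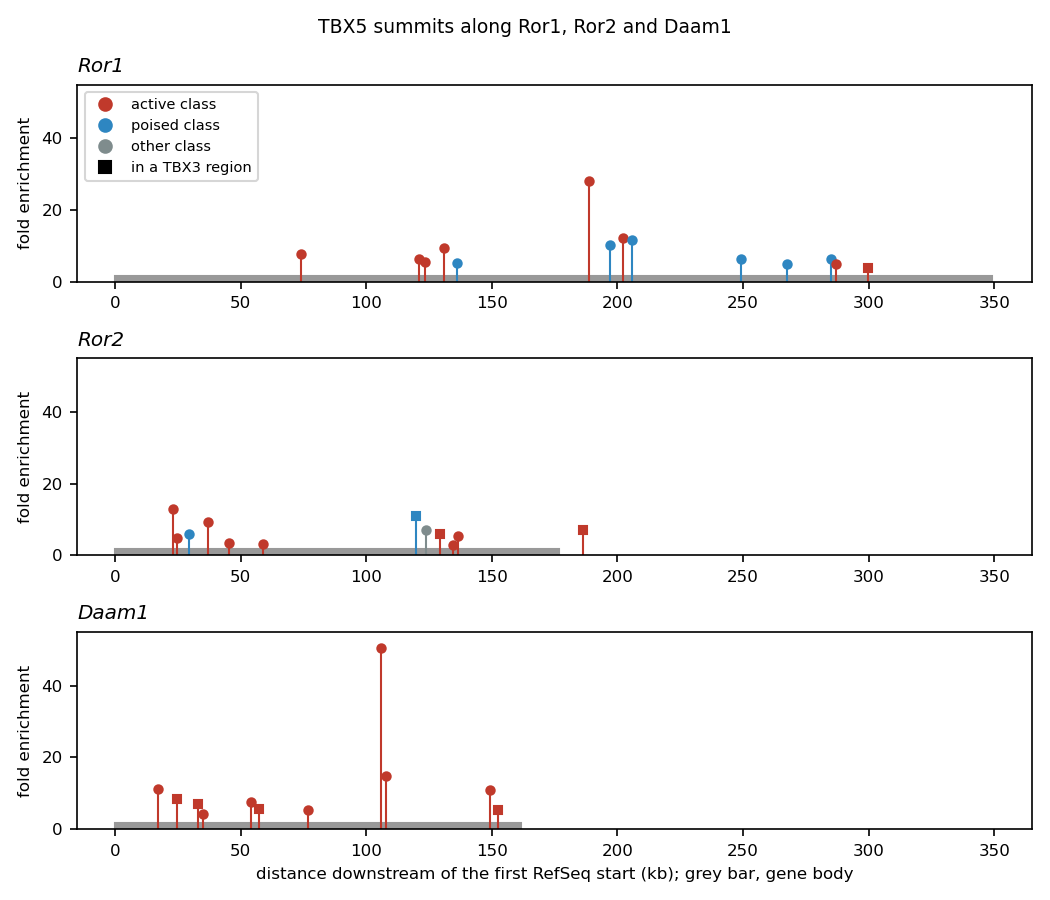
TBX5 summits along Ror1, Ror2 and Daam1, with the distance downstream of the first RefSeq start in kb on the x axis and the fold enrichment on the y axis. Each stem is 1 summit coloured by the authors' chromatin class, squares mark overlap with a TBX3 region and the grey bar is the gene body. Ror1 peaks are highest 189 to 206 kb from the start, Ror2 peaks form 2 groups, and the 50.5-fold Daam1 peak stands above all others.

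Lrp6, the co-receptor of beta-catenin signalling, had 4 summits and its relative Lrp5 had none within 10 kb (nearest at 20.3 kb, in Ppp6r3). The strongest Lrp6 peak, at 134504936 to 134505178 on chromosome 6, had 10.1-fold enrichment (6.60 to 14.8) and was in the poised class. The next had 9.16-fold (5.998 to 13.4) and lay 246 bp from a start inside the gene body. Another, 191 bp upstream of a start at the edge of the gene, had 6.18-fold (4.15 to 8.89) and a TBX3 overlap, and the last had 3.03-fold (1.83 to 4.75). The pair Lrp5 and Lrp6 thus differed in calls at nearly the same length, 102 and 120 kb.

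Of the 10 Frizzled receptor genes 2 were bound, both weakly. Fzd8 had a promoter-class summit in its body with 3.95-fold enrichment (2.54 to 5.89), and Fzd6 a summit 6034 bp outside its body with 3.66-fold (2.07 to 6.07). Both peaks overlapped TBX3 regions. Fzd5, Fzd2 and Fzd3 had their nearest summits at 28.6, 35.9 and 47.3 kb, and Fzd10 and Fzd1 had theirs at 331 and 428 kb. Frizzled genes are short, with a median of 4.59 kb, and 17.2% of all genes under 10 kb were bound.

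Among the secreted modulators Dkk3, a divergent member of the Dickkopf family, had by far the highest enrichment. Its 2 summits lay in the gene body on chromosome 7. The one at 112127164 to 112127451 had 13.7-fold enrichment (10.1 to 18.3), 23464 bp from a start, and the one at 112149077 to 112149465 had 9.93-fold (7.07 to 13.6), 1489 bp from a start and in the promoter class. The weaker summit overlapped a TBX3 region and the stronger one did not. Dkkl1 was called through 1 summit of 4.49-fold (2.54 to 7.45) that lay inside Kash5, 4858 bp outside Dkkl1, with none of the active or enhancer marks.

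No gene of the Sfrp family had a summit within 10 kb. Sfrp1 came closest at 23.0 kb, with a peak of 9.93-fold enrichment that had no nearer protein-coding gene. Dkk4 had a summit at 21.8 kb, and Dkk1, an inhibitor of LRP6, at 293 kb. Dkk2 and Rspo3 were the most isolated members, at 504 and 961 kb. Of the 35 unbound members 12 (34.3%) had a summit under 50 kb away and 2 (5.71%) none under 500 kb, against 29.6% and 13.7% of all unbound genes. The remaining 21, among them Wnt2, Wnt4, Wnt7b, Wnt8a, Wnt8b, Fzd4, Fzd7, Fzd9, Sfrp2, Sfrp4 and Sfrp5, lay in between, and the median over the 35 was 74.9 kb. The first share was close to that of other unbound genes and the second was below it. At the edge of the window itself, Fzd6 at 6034 bp was the farthest gene inside it and Dvl1 at 15872 bp the nearest outside.

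**Figure D3:**
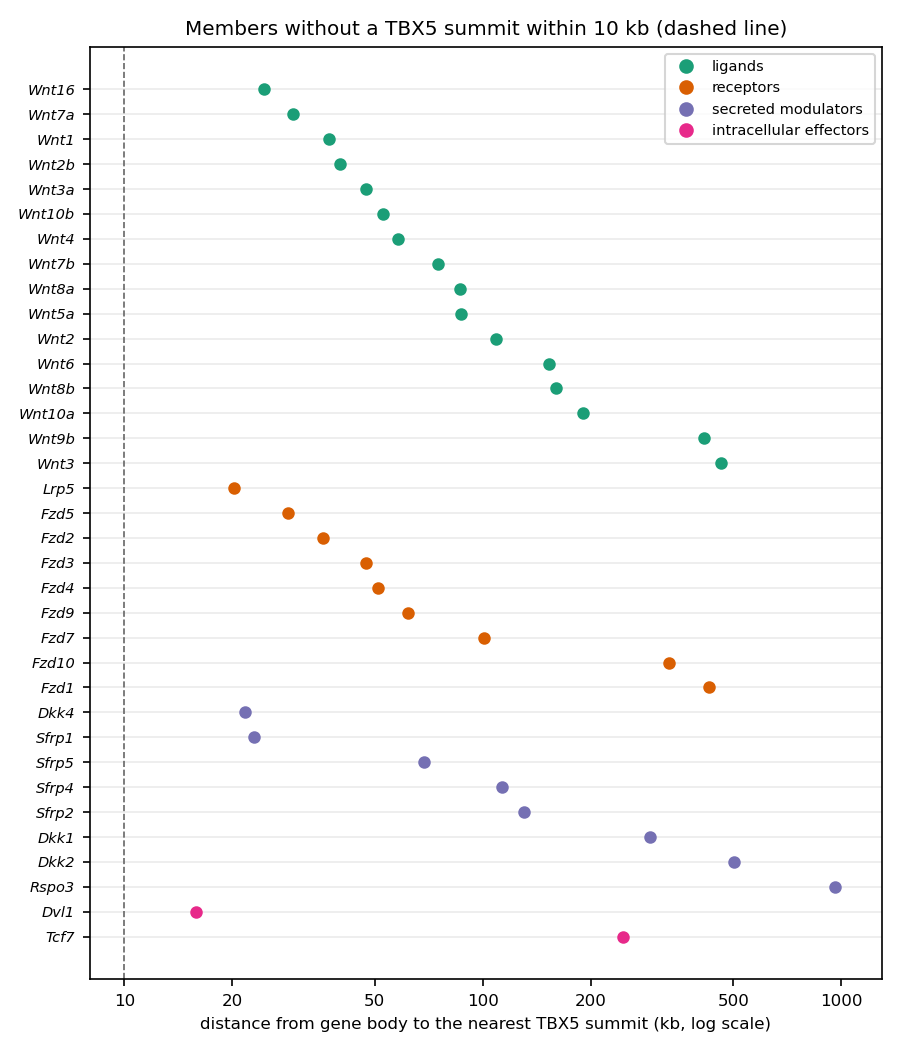
Distance from the gene body to the nearest TBX5 summit (x axis, kb, log scale) for the 35 members without a summit within 10 kb (dashed line), coloured by class of protein. Distances run from 15.9 kb for Dvl1 to 961 kb for Rspo3, and Tcf7 at 246 kb is the other unbound effector.

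Of the 12 summits counted for intracellular effectors 8 were in the promoter class (66.7%), against 24.5% of all autosomal peaks. The effector itself was the nearest gene for 5 of these 8 (41.7% of the 12), at Apc, Axin1, Ctnnb1 and Dvl3, and the other 3, both of Dvl2 and the second of Apc, lay at the promoters of neighbours. The median fold of the 12 was 4.72 against 5.67 for all autosomal peaks. Over all promoter-class peaks the median was 4.39, and over all others 6.20. At the summits of all members the medians were 4.19 in the promoter class and 6.15 outside it. Whether promoter position accounts for the effector folds was not tested. The median pileup was 23 fragments at promoter-class peaks and 21 at the others, over median backgrounds of 4.24 and 2.47. At the 12 effector summits it was 18 over 3.09, against 22 over 2.83 for all autosomal peaks.

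Ctnnb1 encodes beta-catenin, the messenger between membrane and nucleus. It had 1 peak, at 120933243 to 120933595 on chromosome 9 (mm10), whose summit lay 7 bp upstream of the gene's start. The enrichment was 3.60-fold (2.43 to 5.14) from 28 fragments over a background of 7.06, and the chromatin class was active promoter. The RefSeq promoter table, with the 250 bases before a start and 50 after it, holds 37 of the 54 members, and of these 37 Ctnnb1 alone had a summit inside its window. Apc, Axin1 and Lrp6, with summits about as near to a start of the authors' annotation, have no entry there. The upstream 250 bases are shown because the summit falls at base 244 of them, and the peak covers bases 94 to 250. They are on the plus strand, chr9:120933150-120933399, from RefSeq (GRCm38.p6), and capitals mark a T-box core, GGTGTG.
Ctnnb1: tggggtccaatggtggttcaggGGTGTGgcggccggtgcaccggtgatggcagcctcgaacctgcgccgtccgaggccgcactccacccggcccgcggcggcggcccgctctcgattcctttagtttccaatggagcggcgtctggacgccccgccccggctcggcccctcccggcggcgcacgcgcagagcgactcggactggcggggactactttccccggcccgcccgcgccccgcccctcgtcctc
The sequence is 74.8% G and C. Another T-box string, AGGTGT, had no match on either strand, and neither had a TCF/LEF string, CTTTGAT, or a string of the GATA factors of the heart, AGATAA. The core in capitals was added after the letters were seen. It matches at bases 23 to 28, outside the peak and 218.5 bp from the summit. The upstream windows of 250 bases of autosomal protein-coding genes, 20078 in all, served as background, with both strands counted. That T-box string occurred in 11.2% of them, the core in 15.9%, the TCF/LEF string in 2.85% and the GATA string in 8.72%. Both T-box strings overlap by 5 letters, and 21.5% of windows held either.

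Of the scaffold genes of the destruction complex, Axin1 and Apc had summits near a start and Axin2 did not. Axin1 had 2 adjoining summits of 3.63-fold (2.23 to 5.62) and 3.46-fold (1.87 to 5.96), 15 bp downstream and 257 bp upstream of a start, both in TBX3 regions. Apc had 1 promoter summit in its body with 4.19-fold (2.57 to 6.50) and another of 3.36-fold (2.09 to 5.16) that lay 8892 bp outside it, 39 bp from Srp19. The second belongs by position to Srp19. Axin2, whose product is both a scaffold and a feedback target of beta-catenin, had 1 poised summit 1721 bp beyond the gene body with 5.64-fold (3.19 to 9.36). No summit stood at the start of Axin2.

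Dishevelled proteins pass the signal from Frizzled into the cell. Dvl3 had a summit 1080 bp downstream of a start with 5.04-fold (3.14 to 7.73), and Dvl1 had none within the window. Dvl2 was called through 2 promoter summits of 6.80-fold (5.06 to 8.94) and 6.17-fold (4.08 to 8.99), at 9620 and 5063 bp from its body. These lay 398 bp upstream of Gabarap and 237 bp upstream of Phf23, and neither peak reached Dvl2. The first of them was also 371 bp from Ctdnep1. The 250 bases before the Phf23 start, chr11:69995516-69995765 on the plus strand, are shown as the place where a peak counted for Dvl2 lies, with the summit at base 14 and the peak over bases 1 to 147.
Phf23: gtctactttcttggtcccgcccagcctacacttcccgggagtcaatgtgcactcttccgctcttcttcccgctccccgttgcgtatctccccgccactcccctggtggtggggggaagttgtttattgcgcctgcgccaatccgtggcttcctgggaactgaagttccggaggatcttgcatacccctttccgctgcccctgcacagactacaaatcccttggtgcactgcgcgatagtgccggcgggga
None of the strings searched matched here, so no letter is in capitals. By the nearest gene of each summit, Dvl2 was not bound.

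The nuclear factors that carry beta-catenin to DNA had single summits far from their starts. Tcf7l1 had a 6.52-fold summit (3.89 to 10.3) in its body, 118 kb from its RefSeq start, in the active class. The authors' distance for it pointed to a start of Gm15401. Tcf7l2 had a summit of 6.15-fold (3.72 to 9.64), 29421 bp upstream of an internal Tcf7l2 start, active and in a TBX3 region. Lef1 had a poised summit of 4.39-fold (2.38 to 7.57), 61.3 kb from its first start. Tcf7, the fourth of these factors, had its nearest summit at 246 kb. The intervals of the first 3 overlapped.

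**Figure D4:**
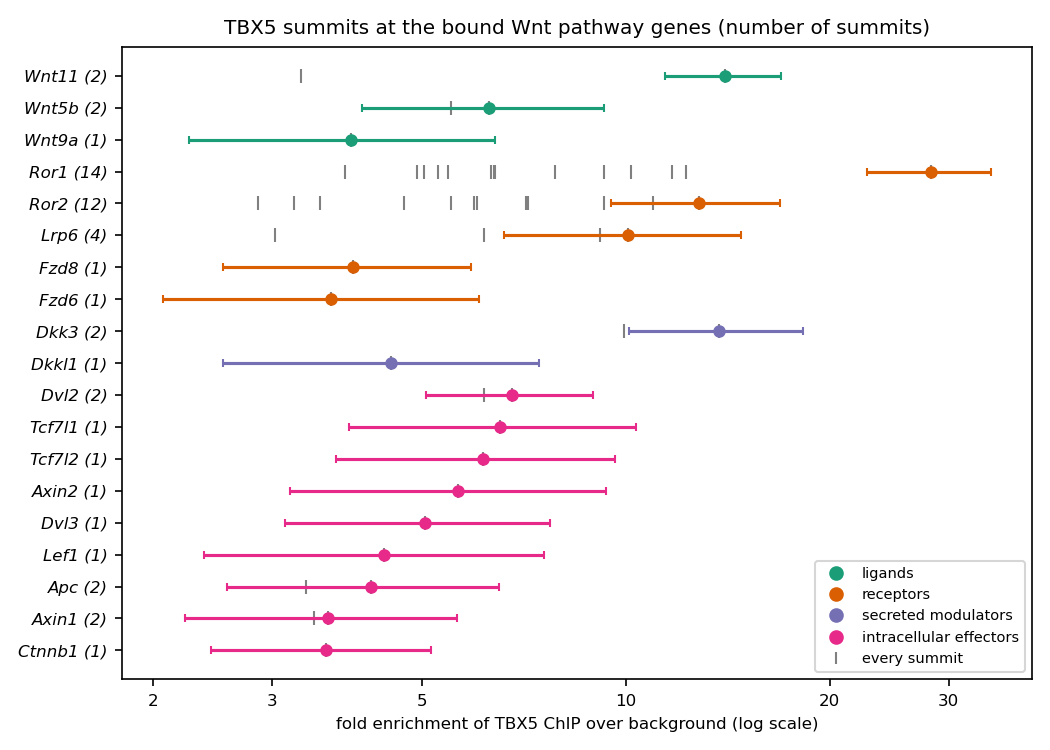
Fold enrichment over background (x axis, log scale) at the 19 bound members, with the number of summits after each gene name. Filled points are the strongest summit of a gene with its exact 95% Poisson interval, coloured by class of protein, and grey ticks are all summits. Ror1 reaches 28.2-fold, Wnt11, Dkk3, Ror2 and Lrp6 reach 10.1 to 14.0-fold, and no effector exceeds 6.80-fold.

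A summit of at least 10-fold was found at 5 members (9.26%), namely Ror1, Wnt11, Dkk3, Ror2 and Lrp6, against 5.92% of all genes. Promoter-class summits marked 9 members (16.7%), against 17.9% of all genes. Both shares stood near those of the genome.

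In H3K27ac, the promoter class and TBX3 overlap, the 52 member summits resembled the whole list. H3K27ac overlapped 37 of them (71.2%, exact 95% interval 56.9 to 82.9) against 73.6% of all 12284 autosomal peaks. The promoter class held 13 (25.0%, 14.0 to 38.9) against 24.5%, and TBX3 regions overlapped 15 (28.8%, 17.1 to 43.1) against 27.2%. The poised class held 12 (23.1%, 12.5 to 36.8) against 14.3%, and the authors' class named other held 2 (3.85%, 0.469 to 13.2) against 10.5%. The intervals treat summits as independent, which those of 1 gene are not. Without Ror1 and Ror2 the promoter share rose to 50.0% (29.9 to 70.1) and the TBX3 share was 42.3% (23.4 to 63.1). No member summit overlapped H3K27me3, the Polycomb mark, with an upper limit of 6.85%, and 1.62% of all autosomal peaks did. The median fold of member summits was 6.0, and 5.28 without Ror1 and Ror2, against 5.67 for all autosomal peaks.

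A list of 57 other genes of the pathway, drawn up with earlier results of these data known, was examined beside the members. Of these 30 were bound (52.6%), against 30.9% of all genes, and their median length was 48.2 kb against 17.5 kb. By length, 2 of 8 genes under 10 kb, 6 of 12 of 10 to 30 kb, 13 of 23 of 30 to 100 kb and 9 of 14 over 100 kb were bound, against 17.2%, 27.8%, 39.7% and 64.0% of all genes. The nuclear cofactors had 7 of 10 bound, the destruction complex and its partners 9 of 15, planar polarity and related branches 8 of 15, R-spondins with their receptors 3 of 8, membrane and secreted inhibitors 2 of 7 and secretion factors 1 of 2. These shares rest on few genes and their differences were not tested.

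The strongest peak of that list belonged to Daam1, a formin that links Dishevelled to the actin cytoskeleton. Its peak on chromosome 12, at 71936375 to 71936982, held 168 fragments at the summit for 50.5-fold enrichment (43.2 to 58.7). It lay inside the gene body 106 kb from its first start, and ranked 34 of all peaks. Daam1 held 11 summits, at 6.06 per 100 kb, and all 11 were active with H3K27ac. Those of Ror1 and Ror2 were not all so, since 6 and 2 of them were poised. Of all autosomal peaks 73.6% overlapped H3K27ac. Daam1, Ror1 and Ror2 all belong to the branch that works without beta-catenin, whereas Ptk7, Vangl1, Vangl2, Celsr3, Rhoa, Mapk8 and Nfatc1 of the same branch had no summit in their windows.

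After Daam1 stood Celsr1, a cadherin of planar polarity, with 14.6-fold (10.8 to 19.3) at a summit that lay inside Trmu, 6599 bp from Celsr1. Ctnnbip1, an inhibitor that keeps beta-catenin from TCF factors, had 14.0-fold (10.7 to 18.03) at a summit in its body that overlapped a TBX3 region. The co-repressors Tle1 and Tle3 had 10.3-fold (7.77 to 13.4) and 9.45-fold (6.82 to 12.8) in their gene bodies. Both of these strongest TLE peaks were in the repressed class outside promoters, a class with H3K27me3 that no member summit had.

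For comparison with Ctnnb1, the upstream 250 bases are shown of 3 of the 4 genes of that list whose promoter windows also held a summit. They were picked after their values were seen. All are on the plus strand, and capitals mark matches to the T-box strings. The first is Ctnnbip1 (chr4:149517991-149518240, summit at base 84, 3.40-fold, 2.23 to 4.99), the next Dact1, a Dishevelled partner (chr12:71309634-71309883, summit at base 57, 5.67-fold, 3.75 to 8.27), and the last Lgr4, an R-spondin receptor (chr2:109917397-109917646, summit 49 bp after the start, 7.32-fold, 5.59 to 9.42).
Ctnnbip1: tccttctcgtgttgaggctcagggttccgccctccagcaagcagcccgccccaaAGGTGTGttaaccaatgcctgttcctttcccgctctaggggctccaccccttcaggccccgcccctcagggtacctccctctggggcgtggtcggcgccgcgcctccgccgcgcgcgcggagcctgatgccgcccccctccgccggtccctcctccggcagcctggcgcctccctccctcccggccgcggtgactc
Dact1: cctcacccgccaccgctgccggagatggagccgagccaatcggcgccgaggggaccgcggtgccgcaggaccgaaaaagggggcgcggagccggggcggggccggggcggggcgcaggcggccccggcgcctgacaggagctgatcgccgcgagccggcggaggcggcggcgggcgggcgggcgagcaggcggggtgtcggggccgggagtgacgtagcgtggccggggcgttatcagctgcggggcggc
Lgr4: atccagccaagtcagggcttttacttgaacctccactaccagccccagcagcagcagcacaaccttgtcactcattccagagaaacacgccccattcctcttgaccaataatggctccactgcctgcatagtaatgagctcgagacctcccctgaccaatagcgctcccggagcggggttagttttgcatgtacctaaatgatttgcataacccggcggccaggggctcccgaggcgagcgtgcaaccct
In Ctnnbip1 the T-box string other than the core matched at bases 55 to 60 and overlapped the core at bases 56 to 61, with its middle 26.5 bp from the summit. Dact1, at 80.4% G and C, and Lgr4 had no match to any of the 4 strings. The window of the gene not shown, Apc2, held a summit of 3.36-fold (2.09 to 5.16) 147 bp before the start and no match either. The Lgr4 and Apc2 summits overlapped TBX3 regions, and those of Ctnnbip1 and Dact1 did not.

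Series-wide checks were few. All 10 heart muscle genes examined, among them Tnnt2, Myh6 and Nppa, were bound. Of 10 genes of other tissues only Gfap was bound, against 30.9% of all autosomal protein-coding genes. This is a check of binding and not of expression, in lists that were not matched for gene length. The pileup of ChIP fragments at a summit had a median of 22 over all autosomal peaks (range 9 to 307) and ran from 11 to 102 at the member summits, so most member folds carry wide counting intervals.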

How the data were processed

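ChIP-seq of E14.5 CD-1 mouse hearts was deposited as 1 peak list from pooled samples (2 TBX5 ChIP, 1 input). The submitters' processing notes name mm10, ChIPseeker, MACS2, SAMtools and Bowtie2, and read depth, versions and settings are not stated in them. The fold enrichment (a ratio over local background), the −log10 p and −log10 q and the score of each peak are the authors' deposited values. The promoter class, histone mark and TBX3 overlaps and signed distances are from the authors' deposited table, and no source used here gives the tissue or stage of those regions. The gene of the start to which a signed distance points was found here, by matching that position to RefSeq starts. A peak counted as marked if any of a mark's region files marked it.

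Gene bodies and promoter sequences came from RefSeq tables of GRCm38.p6, the assembly that mm10 names. Of the 54 members 37 matched the promoter table. Positions are 1-based. Bound genes have a summit on the body or the 10 kb to either side. A summit near several genes counted for each. The pileup was solved from fold, (pileup + 1)/(background + 1), and −log10 p as a Poisson tail, which matched within 0.0005 for all 12436 peaks. On 988 simulated peaks it was recovered in 100% of cases. Intervals of a fold are exact 95% Poisson intervals of the pileup with the background fixed, and those of shares are Clopper-Pearson intervals. Both cover counting error only, and PCR reads without molecular identifiers are not independent molecules. No test was run. Each gene count is set beside the share of all autosomal protein-coding genes.

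Every member was described by class of protein, with each summit for the members of the 10 highest folds, and unbound members were named where the nearest summit lay under 50 kb or over 500 kb away. In the list of other pathway genes the 5 of highest fold were named. Any other name was chosen after its values were seen. The members, lists and rules were chosen with earlier results of these data known. Alternatives were other windows, stricter peak limits, any overlap of the peak, the nearest gene and promoter or other peaks alone. The tools were scipy 1.17.1, numpy 2.4.6 and pandas 2.3.3 under Python 3.11.15, with figures by matplotlib 3.10.9.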

Additional observations from a re-analysis of the deposited data

How the results depend on the processing

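No replicate could be left out, since the peaks come from pooled samples. No paired analysis was possible because the result comes from no test and the columns carry no replicate. Counts of bound genes stayed within 1.5 times the main count in all settings but these. Of all members 19 were bound, with 31 at 50 kb (51.3% of all genes), 7 at −log10 q of at least 10 (14.2%), 11 at 5-fold or more (19.2%) and 9 with promoter peaks alone (17.9%). Ligands went from 3 to 8 at 50 kb and 1 with promoter peaks alone. Receptors went from 5 to 9 at 50 kb, 3 under either stricter limit and 2 with promoter peaks alone. Secreted modulators went from 2 to 4 at 50 kb and to 1 with the gene body alone, either stricter limit or promoter peaks alone. Effectors went from 9 to 1 at −log10 q of at least 10, 5 at 5-fold or more, 5 with promoter peaks alone and 4 with other peaks alone. Other pathway genes went from 30 to 19 at −log10 q of at least 10, 33.3% of that list against 14.2% of all genes. With promoter peaks alone 15 of them were left, against 17.9% of all genes. The median fold of member summits, 6.0, became 9.61 and 6.66 under the stricter limits, as those limits remove weak peaks. Without Ror1 and Ror2, a choice made after seeing the data, the promoter share was 50.0%. Of 76 alternative values 52 stayed near the main one. Binding below the authors' threshold was not detectable at this depth.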

Other observations

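Of the 52 summits counted for members, 42 lay inside the gene body and 10 outside it, and 5 also lay in the window of another protein-coding gene. Axin2, Ctnnb1, Dkkl1, Dvl2, Fzd6 and Wnt9a had no summit in the body. For Dkkl1, Dvl2 and Dvl3 each summit was shared with another gene.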
